A study of Mus musculus with 25 samples.

Results

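The 10 genes of ferritin storage and cellular iron handling described here were followed across hippocampal neuronal nuclei. They are Ftl1, Fth1, Ncoa4, Tfrc, Slc40a1, Slc11a2, Aco1, Ireb2, Fbxl5 and Pcbp1. They were taken by name, though with earlier results of these data known, and all 10 were found among the 24411 genes of each expression table. Ftl1 is the gene that the study itself picked out, in part from the aging libraries used here. The nuclei were sorted from hippocampi of male C57BL/6 mice as positive for the DNA dye Hoechst and the neuronal nuclear protein NeuN, and RNA-seq was run on bulk sorted nuclei. In the aging experiment, 3 libraries came from young wild-type mice of 3 months and 2 from aged wild-type mice of 18 months. In the overexpression experiment, 3-month mice received virus with the synapsin promoter, which is active in neurons, driving either mouse Ftl1 followed by an internal ribosome entry site and eGFP (7 libraries labelled Ftl1 OE) or the latter cassette alone (5 libraries labelled control). In the knockdown experiment, 18-month mice received virus with a short hairpin RNA, directed at Ftl1 for the 4 libraries labelled Ftl1 KD or at luciferase for the 4 labelled control. The Ftl1 cassette holds the coding sequence with parts of its untranslated regions, so that reads from virus and from the mouse gene could not be told apart. Nuclei were not sorted for the virus, and the NeuN antibody carried a green dye that emits close to eGFP. The study counts as many young and aged mice as there are aging libraries. The labels do not tie the virus-treated libraries to individual animals, and p-values there measure the spread between libraries, which may be technical.

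The aging libraries held 7969282 to 9537872 reads and the overexpression libraries 9943996 to 17034325, while the knockdown libraries held only 48902 to 358560. Depth there differed by label, with 68092 to 358560 reads in the controls and 48902 to 97104 in the libraries labelled Ftl1 KD. The nuclear RNA of the targeted gene did not follow the labels in either the overexpression or the knockdown libraries. Protein was not analysed here. Ftl1 was not higher in the libraries labelled Ftl1 OE than in their controls, with groups that overlapped, and it was higher in those labelled Ftl1 KD. Groups are therefore called by their labels, and no direction below is to be read as an effect of more or less Ftl1. One overexpression control, replicate 3, stood apart: 338 of the 10475 genes with a mean normalised count of at least 100 had no read in it, against 0 to 105 in the other 11 libraries. All 10 neuronal marker genes had reads in every aging and overexpression library, with Rbfox3, which encodes NeuN, among them. In the knockdown libraries 0 or 1 of the 10 was at 0, either Prox1 or Nrgn. Markers of glia had reads too, with some genes at 0. As a share of reads, 10 oligodendrocyte markers held 0.135% to 0.332% in the overexpression controls and 0.214% to 0.348% in libraries labelled Ftl1 OE. In young and aged nuclei they held 0.0377% to 0.0813% and 0.0369% to 0.0521%. For 10 astrocyte markers the ranges were, in that order, 0.0787% to 0.355%, 0.148% to 0.473%, 0.0377% to 0.0586% and 0.0238% to 0.0495%. The part of glia in the ferritin levels was not tested.

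Ferritin is a shell of heavy chains, encoded by Fth1, and light chains, encoded by Ftl1. The heavy chain oxidises ferrous iron and the light chain aids formation of the mineral core. Iron enters cells bound to transferrin through the transferrin receptor Tfrc, leaves the endosome through Slc11a2 (DMT1) and leaves the cell through ferroportin, Slc40a1. The RNA-binding proteins encoded by Aco1 and Ireb2 (IRP1 and IRP2) bind iron-responsive elements when iron is scarce, which blocks translation of ferritin and ferroportin mRNA and stabilises Tfrc mRNA. Much of ferritin control is thus translational and is not seen in RNA levels.

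The iron-responsive element itself was located in the annotated transcripts, because it is what joins the storage, export and import genes. A C, 5 bases, the loop CAGTGN and 5 bases pairing with the first 5 (G-T pairs allowed) were required on the transcript strand. Such a hairpin was present in the 5′ untranslated regions of 28 of 19977 genes (0.140%) and in the 3′ untranslated regions of 127 of 20787 (0.611%). Of the 10 genes, Fth1, Ftl1 and Slc40a1 held it in the 5′ region and Tfrc held 4 copies in the 3′ region. The sequences below are from the mm10 (GRCm38) genome, 5′ to 3′ on the transcript strand, with the loop in capitals.
Fth1: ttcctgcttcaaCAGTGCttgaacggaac
Ftl1: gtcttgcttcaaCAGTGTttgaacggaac
Slc40a1: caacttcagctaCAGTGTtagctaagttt
Tfrc, copy 1: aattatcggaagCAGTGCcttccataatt
Tfrc, copy 2: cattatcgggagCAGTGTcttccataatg
Tfrc, copy 3: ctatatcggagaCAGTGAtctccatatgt
Tfrc, copy 4: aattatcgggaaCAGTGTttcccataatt

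The Fth1 element lies at chr19:9982732-9982760 on the plus strand and begins at base 87 of the Fth1 transcript of 929 bases. The Ftl1 element lies at chr7:45459779-45459807 on the minus strand and begins at base 78 of the Ftl1 transcript. The pair is identical at 26 of 29 positions. The Slc40a1 element lies at chr1:45925465-45925493 on the minus strand. The Tfrc copies lie on the plus strand at chr16:32631219-32631247, chr16:32631598-32631626, chr16:32631663-32631691 and chr16:32631710-32631738. These letters were not found in the searched regions of the other 6 genes, which says nothing more of those genes.

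Scaled per kilobase of transcript and per library depth (RPKM), the ferritin chains were the most abundant of the 10 RNAs in every group of libraries. In young nuclei Fth1 stood at 318 ± 104 (SD, n = 3) and Ftl1 at 236 ± 26.0, which lie within that spread of each other. Pcbp1 followed at 38.2 ± 9.04 and Fbxl5 at 35.7 ± 4.92, again within their spread. Slc11a2 at 27.4 ± 1.24, Tfrc at 23.2 ± 2.47 and Ncoa4 at 14.6 ± 3.52 came next, each step larger than either SD. Aco1 at 9.75 ± 2.11 and Ireb2 at 8.37 ± 2.06 did not differ beyond their spread, and Slc40a1 was lowest at 1.38 ± 2.19. In the overexpression controls the same scale gave 1358 ± 381 (n = 5) for Fth1, 798 ± 528 for Ftl1 and 78.0 ± 13.6 for Pcbp1, and Slc40a1 was again lowest at 0.272 ± 0.599. In the knockdown controls it gave 443 ± 46.5 (n = 4) for Fth1, 372 ± 147 for Ftl1 and 49.4 ± 20.7 for Pcbp1. The place of Ftl1 relative to Fth1 depends on which principal Fth1 transcript is used. The values above use the transcript of 1494 bases, and the shorter one of 929 bases raises Fth1 further.

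**Figure D1:**
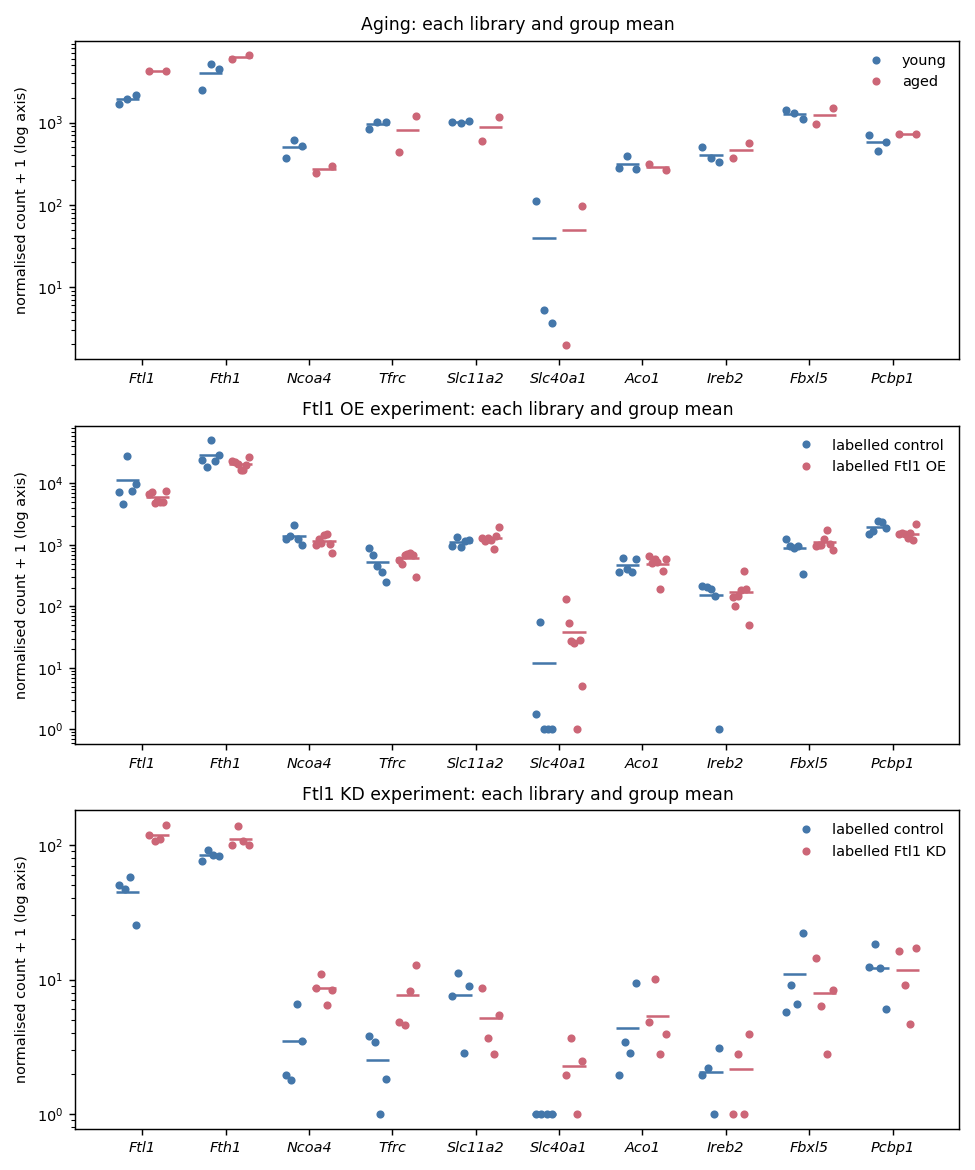
Normalised count plus 1 (log axis) of each of the 10 genes, with one point per library and a line at the group mean, in the aging, overexpression and knockdown experiments. Ftl1 and Fth1 lie at the top of every panel, aged Ftl1 lies above all young libraries, 1 control library reaches 28309 for Ftl1 in the overexpression panel, and most genes of the knockdown panel sit under 20.

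Both ferritin chains were higher in both aged libraries than in all 3 young ones. For Ftl1, young nuclei gave 1685, 1925 and 2141 normalised counts, whereas aged nuclei gave 4247 and 4272. The groups did not overlap, and the log2 fold change was 1.16 ± 0.26 (SE), with an adjusted p of 0.397 by limma. Fth1 stood at 2487, 5103 and 4431 in young and at 5879.5 and 6603 in aged libraries. Its log2 fold change was 0.70 ± 0.33 with an adjusted p of 0.639. Young replicate 1 was the lowest library for both chains, and leaving it out gave log2 fold changes of 0.39 for Fth1 and 1.07 for Ftl1. None of the 10 genes passed the threshold, which was an adjusted p of 0.05 and a log2 change of 0.5, and neither did any other of the 13712 genes tested (0% called). Of all genes tested, 1089 (7.94%) had an unadjusted p of 0.05 or less, and edgeR on the recovered reads called 0 genes as well. DESeq2 on those reads called 138 genes, Ftl1 among them with an adjusted p of 0.000174. Groups that do not overlap were found for 4 of the 10 genes and for 24.7% of all genes tested. Ftl1 is among the 4, and the study had picked it out in part from these libraries.

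Ncoa4, the receptor that delivers ferritin to the lysosome for iron release, was the gene that lay lower in both aged libraries. It stood at 365.0, 618 and 512 normalised counts in young and at 241 and 295 in aged libraries. The groups did not overlap and the log2 fold change was -0.87 ± 0.37, with an unadjusted p of 0.0356 and an adjusted p of 0.612. Ncoa4 and Ftl1 were the genes of the 10 with an unadjusted p of 0.05 or less in aging. The share is 2 of 10 against 7.94% of all genes. It is not an independent comparison, because the study picked out Ftl1 in part from these same aging libraries.

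Import, export and sensor genes had no common direction with age. Tfrc stood at 824, 1019 and 1022 in young and at 436 and 1197 in aged libraries, and the aged pair lay on either side of the young ones. Slc11a2 showed the same split, with 1030, 974 and 1040 in young against 597 and 1172 in aged libraries. Aged replicate 2 was thus the low library for both import genes. Slc40a1 stood at 109, 4.24 and 2.66 in young and at 0.988 and 96.5 in aged libraries. It was near 100 in 1 library of each group and under 5 in the others, and its log2 fold change of 0.12 had a SE of 1.96.

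The iron regulatory protein genes Aco1 and Ireb2 had log2 fold changes of -0.11 ± 0.38 and 0.19 ± 0.36. Fbxl5, the iron-sensing subunit of the ubiquitin ligase that degrades IRP2, had one of -0.08 ± 0.30. None of these 3 genes had groups that stood apart. Pcbp1, a chaperone that hands iron to ferritin, stood at 716, 455 and 586 in young and at 718 and 726 in aged libraries. The aged values lay just above the highest young one, and the log2 fold change was 0.33 ± 0.32 with an adjusted p of 0.804. The median log2 change was 0.02 over the 10 genes and -0.03 over all genes tested.

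Other RNAs moved with the ferritin chains in these 5 libraries. The summed level of 85 ribosomal protein genes was 20787 to 28445 in young and 33737 to 35350 in aged libraries. The summed level of 6 haemoglobin genes was 88.2 to 110 in young and 293 to 328 in aged libraries, with Hba-a2 and Hbb-bs at 0 in all 5. That of 12 microglial genes was 523 to 901 in young and 559 to 1199 in aged libraries, which overlap. Their part in the ferritin values was not tested. In bulk nuclei, fewer cells with an RNA and less of that RNA per cell cannot be told apart.

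**Figure D2:**
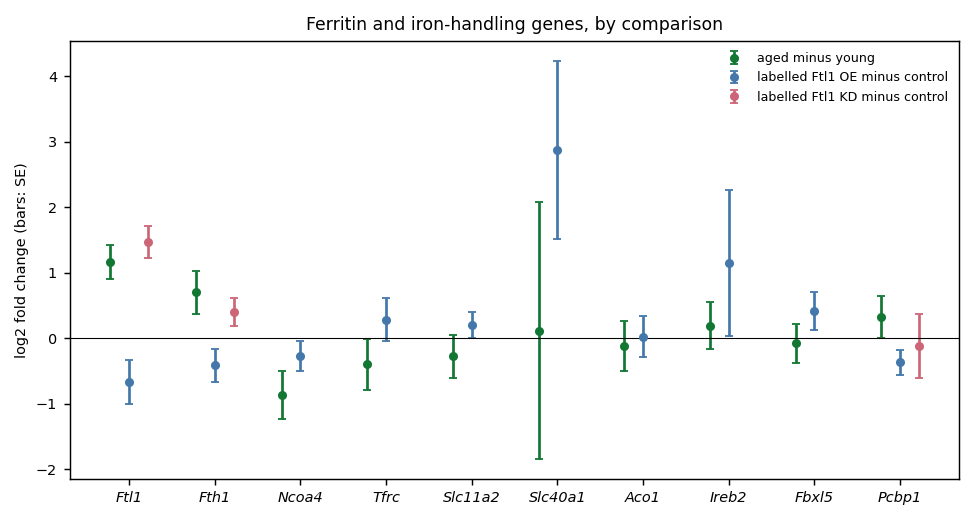
Log2 fold change of each gene tested in the 3 comparisons, with bars of 1 SE. Ftl1 and Fth1 lie above 0 for aging and for the libraries labelled Ftl1 KD and below 0 for those labelled Ftl1 OE, and the widest bars belong to Slc40a1.

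In the overexpression experiment, neither ferritin chain was higher in the libraries labelled Ftl1 OE. Ftl1 stood at 7315, 4580, 28309, 7415 and 9953 normalised counts in the controls, and at 4737 to 7663 with a median of 5171 in the 7 libraries labelled Ftl1 OE. Control replicate 3 was far above the rest, and the groups overlapped. The log2 fold change was -0.67 ± 0.34, with an adjusted p of 0.681 by limma, and it was -0.27 ± 0.22 without control replicate 3. Fth1 stood at 24279, 18416, 50938, 22902 and 28895 in the controls and at 16271 to 27468 with a median of 20429 in the libraries labelled Ftl1 OE. Its log2 fold change was -0.41 ± 0.26 (adjusted p = 0.717), and -0.19 ± 0.21 without control replicate 3. Both chains were thus highest in the same control library.

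None of the 10 genes was called, and 0% of the 14099 genes tested were. An unadjusted p of 0.05 or less was found for 0 of the 10 genes and for 1023 of all genes (7.26%). By edgeR on the recovered reads 0 genes were called, and by DESeq2 60, none of the 10 genes among them. The groups overlapped for all 10 genes, while 0.582% of all genes had groups that did not overlap. Without control replicate 3, an alternative added after the data were seen, the groups still overlapped for all 10, against 0.773% of all genes without overlap.

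Of the other genes, Ncoa4 stood at 1236, 1401, 2118, 1256 and 983 in the controls and at 750 to 1509 with a median of 1076 in the libraries labelled Ftl1 OE. Its highest value was again in control replicate 3, and its log2 fold change was -0.27 ± 0.23, or -0.10 ± 0.21 without that library. Pcbp1 had a log2 fold change of -0.37 ± 0.19 and an adjusted p of 0.685. It ranged from 1523 to 2469 in the controls and from 1184 to 2156 in the other group.

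The import genes lay slightly higher in the libraries labelled Ftl1 OE, within the spread of the groups. Tfrc stood at 893, 691, 458, 358 and 246 in the controls and at 303 to 753 with a median of 688 in the other group. The controls spanned the whole range of the other group, and the log2 fold change was 0.28 ± 0.33. Slc11a2 had a log2 fold change of 0.20 ± 0.20, Fbxl5 of 0.42 ± 0.29 and Aco1 of 0.02 ± 0.32, or -0.07 with median centring. Without control replicate 5, the lowest control for both, Fbxl5 had 0.10 and Tfrc 0.04.

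Slc40a1 and Ireb2 showed reads in some libraries and none in others at similar depth. Ferroportin, Slc40a1, stood at 0.765, 55.3, 0, 0 and 0 in the controls. In the libraries labelled Ftl1 OE it ranged from 0 to 130 with a median of 26.9. A count of 0 allows up to 3 reads, which is 2.65 to 4.06 normalised counts in these 4 libraries, so the libraries above 20 exceeded this limit. The log2 fold change was 2.88 ± 1.36 with an adjusted p of 0.672, and it rests on such zeros. Ireb2 stood at 214, 207, 188, 148 and 0 in the controls and at 49.6 to 375 with a median of 146 in the other group. Its log2 fold change of 1.15 ± 1.11 turned to -0.36 without control replicate 5, the library at 0. The median log2 change was 0.11 over the 10 genes and 0.10 over all genes tested.

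The ribosomal protein sum ranged from 102521 to 300595 in the controls and from 87414 to 128716 in the libraries labelled Ftl1 OE, and it was highest in control replicate 3. The microglial sum, of 12 genes, ranged from 3242 to 7802 in the controls and from 1892 to 3473 in the other group, with C1qa, Cd68, P2ry12 or C1qc at 0 in 1 or 2 libraries each. Choroid plexus markers, 6 genes, ranged from 430.3 to 110883 in the controls and from 294 to 58874 in the other group, with Aqp1, Folr1, Clic6 or Kcnj13 at 0 in some. Their part in the ferritin values was not tested.

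The genes with the levels most like Ftl1 over these 12 libraries were Pfdn5, a prefoldin subunit (Pearson's r = 0.968), Rpl13a, a ribosomal protein (0.965), Guk1, guanylate kinase (0.965), Lamtor5, a Ragulator subunit (0.964), and Mrps34, a mitochondrial ribosomal protein (0.961). Fth1 ranked 10 of 14098 genes, with r = 0.958. The most like Fth1 were Ap1s1 (0.977), Atp6v0c (0.977), Pgam1 (0.973), Psma5 (0.972) and Tuba4a (0.970). These r values describe the libraries, which share control replicate 3 as a high point. Without it, over 11 libraries, the r of Ftl1 and Fth1 was 0.877 and that of Ftl1 and Pfdn5 was 0.933. Ncoa4 had an r with Fth1 of 0.196 over all 12 libraries and of -0.756 without control replicate 3, where it ranked 13399 of 14098 genes. That value was not particular to Ncoa4. Over the same 11 libraries Fbxl5 had -0.735, Tfrc -0.734, Ireb2 -0.695 and Slc40a1 -0.278. Slc11a2 had 0.361, Aco1 0.410 and Pcbp1 0.588.

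In the knockdown experiment, Ftl1 was higher in every library labelled Ftl1 KD than in every control. It stood at 49.1, 45.6, 56.2 and 24.2 normalised counts in the controls, and the group labelled Ftl1 KD gave 117, 106, 109 and 139.6. These values rest on 30 to 113 reads per control and 60 to 122 reads per library labelled Ftl1 KD. The log2 fold change was 1.47 ± 0.25 with an adjusted p of 0.000223 by limma, the one call among the 10 genes. Fth1 stood at 74.6, 91.2, 82.4 and 81.1 in the controls and at 97.8, 136, 106 and 98.4 in the other group. Its groups did not overlap either, but the log2 fold change of 0.40 ± 0.21 had an adjusted p of 0.161 and was not called.

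These calls stand against a table in which many genes moved. Of the 1460 genes that reached the mean limit of 10, 354 (24.2%) were called, 558 (38.2%) had an unadjusted p of 0.05 or less and 23.8% had groups that did not overlap. Of the calls, 43.5% were higher in the libraries labelled Ftl1 KD, and 55.0% with median centring, which moved the median log2 change of all tested genes from -0.01 to 0.10. Of the 10 genes only 3, Ftl1, Fth1 and Pcbp1, reached the limit, and the groups did not overlap for 2 of them. Pcbp1 ranged from 5.02 to 17.3 in the controls and from 3.64 to 16.2 in the other group, with a log2 fold change of -0.12 ± 0.49.

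The other 7 genes were under the limit and gave few reads. Ncoa4 had 12 reads in all controls and 27 in the libraries labelled Ftl1 KD. Its normalised counts were 0.944, 0.807, 5.62 and 2.51 against 7.67, 9.92, 5.47 and 7.35, which overlap at 1 control. Tfrc had 11 reads in the controls and 20 in the other group, at 2.83, 2.42, 0 and 0.836 against 3.84, 3.61, 7.29 and 11.8 normalised counts. Its groups did not overlap as counted. The 0, in control replicate 3, allows up to 3 reads, which is 5.62 normalised counts there. That limit lies above 3.84 and 3.61 in the other group, so a gap between the groups is not established. In a limma fit with no limit on the mean, the adjusted p was 0.183 for Ncoa4 and 0.186 for Tfrc. Slc40a1 had 0 reads in the 4 controls and 5 in the other group, where 1 library was at 0. Slc11a2 had 52 and 15 reads, Fbxl5 79 and 26, Aco1 28 and 17, and Ireb2 9 and 4. These read sums are not scaled for depth, which differed between the groups. Mean normalised counts in the controls and the other group were 6.63 and 4.15 for Slc11a2 and 9.93 and 7.001 for Fbxl5. For Aco1 they were 3.40 and 4.40, and for Ireb2 1.06 and 1.19, slightly higher in the other group. Changes in these genes were not detectable at this depth.

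Other RNAs differed between the same libraries. The summed level of 8 nuclear-retained RNAs, Malat1 and Meg3 among them, was 630.4 to 1264 in the controls and 226 to 327 in the other group, with Neat1, Mirg, Rian or Kcnq1ot1 at 0 in some. The ribosomal protein sum was 785 to 1116 in the controls and 1191 to 1254 in the other group. The oligodendrocyte sum, of 10 genes, was 39.7 to 97.2 in the controls and 10.9 to 24.4 in the other group, with Ugt8a and Ermn at 0 in all 8 libraries. The microglial sum was 8.49 to 19.8 and 1.47 to 13.4, with 4 to 11 of its 12 genes at 0 in each library. Other lists went the opposite way. The astrocyte sum, of 10 genes, was 35.6 to 68.6 in the controls and 66.7 to 83.8 in the other group, with S100b, Slc7a10, Aqp4, Aldh1l1 or Sox9 at 0 in some. Of its 2 tested genes, the glutamate transporter Slc1a3 was called, with a log2 fold change of 2.05 ± 0.39 and an adjusted p of 0.000541 by limma, and Aldoc was not. The choroid plexus sum, of 6 genes, was 8.07 to 76.8 in the controls and 5.41 to 169 in the other group, with Aqp1 at 0 in all 8 libraries and Folr1, Kl, Kcnj13 or Clic6 at 0 in some. The part of these RNAs in the Ftl1 value was not tested.

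The balance of the 2 chains was also read within each library, where scaling between libraries plays no part. Ftl1 reads per Fth1 read numbered 0.678, 0.377 and 0.483 for young nuclei, compared with 0.722 and 0.647 for aged nuclei. The aged pair overlapped the young libraries. In the overexpression experiment the ratio was 0.301, 0.249, 0.556, 0.324 and 0.344 in the controls and 0.232 to 0.328 in the libraries labelled Ftl1 OE, so that it was not higher in the latter. In the knockdown experiment it was 0.658, 0.50, 0.682 and 0.299 in the controls, whereas the group labelled Ftl1 KD gave 1.20, 0.781, 1.03 and 1.42. The mean log2 difference there was 1.09, and the groups did not overlap. Per kilobase, Fth1 exceeded Ftl1 in all 12 overexpression libraries with either Fth1 transcript. In the libraries labelled Ftl1 KD the ratio per kilobase was 1.21 to 2.19 with the longer and 0.750 to 1.36 with the shorter Fth1 transcript.

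**Figure D3:**
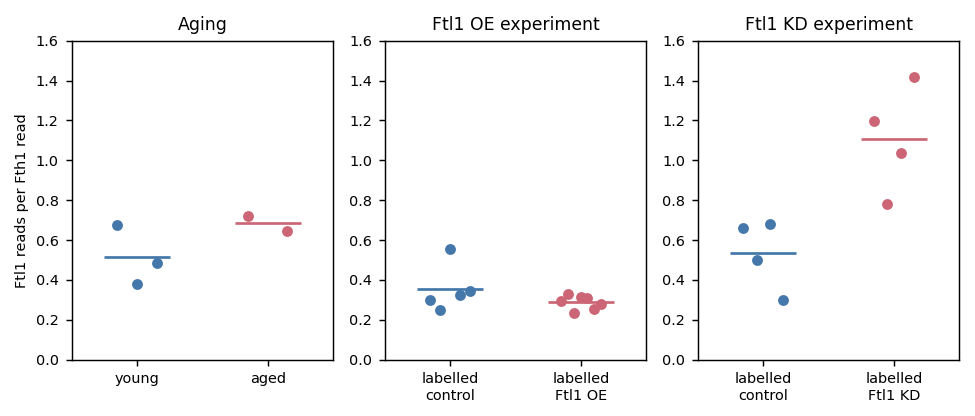
Ftl1 reads per Fth1 read in each library (points) with the group mean (line), for the 3 experiments on 1 scale. The 4 libraries labelled Ftl1 KD lie between 0.781 and 1.42, above their controls, while the other pairs of groups overlap.

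A wider list of 65 genes of iron handling, which includes the 10, had no calls by limma in the deeper experiments. No gene of any kind was called there, so this is not particular to the list. In aging, 53 of the 65 were tested and 0 passed, where 0% of all genes tested did. An unadjusted p of 0.05 or less was found for 8, 4 in each direction, against 1089 of all 13712 genes (7.94%). Beside Ftl1 and Ncoa4 these were 3 higher and 3 lower genes. Slc39a14, a transporter of zinc and non-transferrin iron, had means of 94.5 ± 7.47 (SD, n = 3) in young and 257 ± 75.6 (n = 2) in aged libraries, with an adjusted p of 0.534 by limma. Acvr1, a receptor of bone morphogenetic proteins, had a log2 fold change of 1.16 ± 0.38 and Alad, an enzyme of haem synthesis, one of 0.90 ± 0.40. Pcbp3, a paralogue of Pcbp1, had a log2 fold change of -1.39 ± 0.39 and an adjusted p of 0.441, with no overlap of groups. Uros, also of haem synthesis, had -0.73 ± 0.32, and Trf, which encodes transferrin, -0.85 ± 0.38. Trf is made by oligodendrocytes in brain, and the oligodendrocyte sum was 3117 to 6914 in young and 3176 to 4563 in aged libraries, which overlap. The choroid plexus sum, of 6 genes with some at 0, was 272 to 1651 in young and 254 to 1441 in aged libraries. The part of these cells in the Trf value was not tested.

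In the overexpression experiment 57 of the 65 were tested and 0 passed by limma, where 0% of all genes tested did. Unadjusted p values of 0.05 or less were found for 6, with 3 in each direction, against 7.26% of all genes. Groups that did not overlap were found for 2 of the 57, against 0.582% of all genes. Bola2, which with Glrx3 forms an iron-sulfur chaperone, had 298 to 921 normalised counts in the controls and 140.1 to 286 in the libraries labelled Ftl1 OE, so the groups did not overlap. Its log2 fold change was -1.24 ± 0.33 with an adjusted p of 0.499 by limma, and it was called by DESeq2. Rbx1, a ubiquitin ligase subunit, also had groups that did not overlap, with -0.49 ± 0.17. Pcbp2 had -0.45 ± 0.21. Abcb10, a mitochondrial transporter, had 0.84 ± 0.29 and Neo1, listed under iron sensing and hepcidin signalling, 0.99 ± 0.46. Cp, the ferroxidase ceruloplasmin, had 2.93 ± 1.09 at means of only 20.4 and 59.5. All 6 iron chaperone genes had a log2 change under 0, with a median of -0.40 against 0.10 over all genes tested. This was not particular to that role, since 79 of 82 ribosomal protein genes tested were also lower, with a median of -0.71. Without control replicate 3, the chaperone Pcbp1 had -0.28 ± 0.19.

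In the knockdown experiment 9 of the 65 were tested and 2 passed, Ftl1 and Pgrmc1, where 24.2% of all genes tested passed. Pgrmc1, a haem-binding membrane protein, had 7.94 to 20.6 normalised counts in the controls and 26.2 to 40.1 in the libraries labelled Ftl1 KD. Its log2 fold change was 1.23 ± 0.33 with an adjusted p of 0.00848. App, an abundant neuronal transcript tied to ferroportin stability, had a log2 fold change of -0.04 ± 0.23, and the ubiquitin ligase subunit Skp1a one of 0.19 ± 0.30. In aging, the abundant genes of the list gave log2 changes of 0.12 ± 0.32 for App, -0.05 ± 0.41 for Skp1a, -0.13 ± 0.36 for the lysosomal channel Mcoln1, 0.14 ± 0.32 for the haem transporter Slc48a1 and 0.30 ± 0.34 for Pcbp4.

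**Figure D4:**
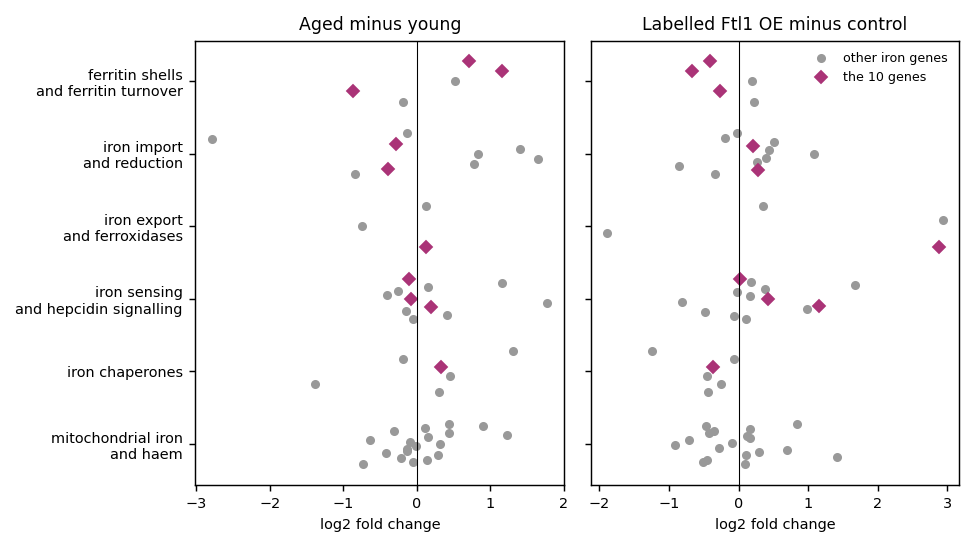
Log2 fold change (x axis) of each tested gene of the 65-gene iron list by role (y axis), for aging (left) and the libraries labelled Ftl1 OE (right); diamonds are the 10 genes. No role lies wholly on one side of 0 in aging, and the 6 iron chaperones lie below 0 in the overexpression panel.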

How the data were processed

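Nuclei were sorted from mouse hippocampus, and the methods name a Smart-seq2 protocol with Nextera libraries while the labels name a strand-specific kit. The authors aligned reads with STAR to mm10, estimated counts with RSEM and deposited the DESeq2-normalised counts, a signal scaled by a size factor per library, as 3 tables normalised separately. The annotation release is not given in the sources used here. The deposited tables also hold fold changes and p-values of the authors' own comparisons, which were not used. All 25 library columns were matched to samples. Dividing by the value of 1 read returned whole reads, to within 0.01 of a read, for 100% of values. Those reads gave depths and count models.

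Each experiment was fitted alone with limma 3.58.1 (trend) in R 4.3.3 on log2(normalised count + 1), over genes with a mean of at least 10. P-values were adjusted by Benjamini-Hochberg over all genes tested. A pseudocount lowers fold changes of low genes. edgeR 4.0.16 and DESeq2 1.42.0 on the reads, other pseudocounts, filters and scalings, the replicate number as a block and leaving out each library were the alternatives. Levels per kilobase used the longest principal GENCODE M21 transcript. The tables do not separate near-identical ferritin pseudogenes, and genes overlapping Ftl1, Slc11a2, Fbxl5 and Pcbp1 in the annotation could share reads with them.

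The 10 genes, the iron and marker lists and the tests were chosen with earlier results of these data known. Named genes were all 10, the 2 most abundant per kilobase of each role of the wider list, those with an unadjusted p of 0.05 or less, and the 5 most like Ftl1 and Fth1 by Pearson's r. Intervals on 0 counts cover counting error only.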

Additional observations from a re-analysis of the deposited data

Results flagged for a closer look

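Of 44 groups of values examined for a library that stands apart, 4 held one. The aging groups, of 3 and 2 libraries, were too small and were not examined. Chance flags about 1 in 20 groups where values are normally spread, and those of Slc40a1, with several at 0, are not. In overexpression control replicate 3, Ftl1 reached 28309 normalised counts, against 4580 to 9953 in the other controls. In overexpression control replicate 2, Slc40a1 stood at 55.3, against 0 to 0.765 in the other controls. In the library labelled Ftl1 OE replicate 1, Slc40a1 stood at 130, against 0 to 52.6 in the others of its group. In the library labelled Ftl1 OE replicate 7, Pcbp1 stood at 2156, against 1184 to 1563.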

How the results depend on the processing

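Of 386 single-gene values under an alternative, 359 kept their direction and their side of the threshold, 26 turned sign and 1 passed where it had not. The latter was Ftl1 in aging with DESeq2 on reads (log2 1.15, adjusted p = 0.000174; 0.000174 to 0.980 over its alternatives), which gave a count of 1 for both the 10 genes and the wider list. In the overexpression experiment DESeq2 gave 1 gene of the wider list, Bola2. In the knockdown experiment a mean of at least 100 gave 0 for both lists, since neither Ftl1 nor Fth1 was then tested, while Ftl1 passed in its 16 other fits with adjusted p of at most 0.0104. The values that turned sign belonged to genes with no call. Their causes were not tested.

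Replicate numbers are shared by groups, but same-numbered libraries correlated at only -0.054 to 0.024 after removing group means and did not each correlate best with their own number, so the numbers were not taken as pairing. With the replicate block, 1 gene of the wider list, Ftl1, passed in the knockdown experiment, the log2 fold change was 0.0036 for Fbxl5 in aging and 0.50 for Pcbp1 in the knockdown experiment. Calls over all genes moved from 354 to 173 there and stayed at 0 in aging.

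Over fits that each dropped 1 library, the log2 change in aging ranged from -1.12 to 0.33 for Tfrc, -0.76 to 0.21 for Slc11a2, -2.69 to 2.93 for Slc40a1, -0.23 to 0.065 for Aco1, -0.11 to 0.50 for Ireb2 and -0.40 to 0.24 for Fbxl5. In the overexpression experiment it ranged from -0.063 to 0.23 for Aco1 (-0.072 with median centring) and -0.36 to 1.58 for Ireb2, and in the knockdown experiment from -0.43 to 0.27 for Pcbp1 (0.027 by edgeR and 0.0026 by DESeq2). The difference in Ftl1 reads per Fth1 read kept its sign, at log2 0.26 to 0.68 in aging, -0.37 to -0.08 in the overexpression and 0.83 to 1.24 in the knockdown experiment. Depth limits the knockdown libraries, where 7 of the 10 genes were not tested.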
